A study of Homo sapiens with 2 samples.

Results

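The 45 genes described here encode the NRF2 pathway's regulators and the thiol, glutathione and other antioxidant enzymes of AGS, a human cell line established from a gastric adenocarcinoma. They were taken by gene name from a list drawn up with earlier results of these data known. Of the 45, 43 were found among the 23321 genes of the deposited table, and GPX2 and GPX7 were not analysed here. Of the 43, 40 reached at least 1 FPKM (a count divided by the library's total and the gene's length) in the higher of the 2 libraries and are called the 40 measured genes. GSTM2, GSTZ1 and MSRA stayed under 1 FPKM in both.

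AGS-GGT7 cells carried a stably introduced GGT7 plasmid, and AGS-ctrl cells, labelled WT, a stably introduced negative control plasmid. Both were AGS cells grown in Dulbecco's modified Eagle's medium with 10% fetal bovine serum, with a time label of 2 weeks. GGT7 belongs to the gamma-glutamyltransferase family, whose best known enzyme, GGT1, cleaves extracellular glutathione. The labels do not say which promoter drives the plasmid or whether each line is 1 clone or a pool. There was 1 total RNA library per group, so nothing below was checked in replicates, and p-values are not given.

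NRF2, encoded by NFE2L2, is a transcription factor that KEAP1 holds in the cytoplasm and hands over for degradation. Oxidants and electrophiles modify KEAP1, and NRF2 then pairs with small MAF proteins at antioxidant response elements in the promoters of its target genes, where BACH1 competes with it. The thioredoxin and glutathione systems carry electrons from NADPH to peroxides and oxidised proteins, peroxiredoxins and glutathione peroxidases reduce the peroxides, and glutathione transferases join glutathione to reactive compounds.

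The GGT7 gene checked the labels, with 470 counts and 12.2 FPKM in AGS-GGT7 cells, against 90 counts and 1.78 FPKM in AGS-ctrl cells. Summed counts were 10289206 in the AGS-GGT7 library and 13482913 in the AGS-ctrl library, and the limit that a count of 0 allows, 3 counts, is 0.292 CPM (the count scaled by library total) in the AGS-GGT7 library and 0.223 CPM in the AGS-ctrl library. The epithelial keratin genes KRT8 and KRT18 had 45.4 and 117 FPKM in AGS-GGT7 cells and 70.0 and 111 FPKM in AGS-ctrl cells, and 4 of 5 epithelial markers in the table were measured. The fifth, CDH1, the gene of E-cadherin, was low, at 0.779 FPKM in AGS-GGT7 cells and 0.482 FPKM in AGS-ctrl cells. Among leukocyte markers 1 of 4 was measured, CD68, which encodes an endolysosomal membrane protein, and the list summed to 6.71 FPKM in AGS-GGT7 cells and 1.57 FPKM in AGS-ctrl cells. PTPRC, the pan-leukocyte marker, had 5 counts in each library, and no marker in the table was at 0 in both. Fibroblast and endothelial lists had 2 of 4 and 1 of 3 markers measured, with summed levels of 5.95 and 2.04 FPKM in AGS-GGT7 cells and 7.74 and 2.25 FPKM in AGS-ctrl cells. The part of these markers in the results below was not tested. In bulk RNA, fewer cells of a type and less RNA per cell cannot be told apart.

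Most of the 40 measured genes differed little between the libraries, and the differences ran in both directions. TXN, the gene of cytosolic thioredoxin, and MGST1, the gene of a membrane-bound glutathione transferase, were the 2 genes that stood 1.5-fold or more higher in AGS-GGT7 cells. No measured gene of the 45 stood 1.5-fold or more lower. The thioredoxin system lay above the control throughout, and peroxiredoxins were divided 3 against 3. Of 9 measured glutathione transferases, 6 lay below the control, beside 54.8% of all measured genes. Differences are given as log2((AGS-GGT7 FPKM + 1)/(AGS-ctrl FPKM + 1)), so that the change of low genes is understated, while ratios are of FPKM without the added 1. In brackets after each ratio stands its exact 95% counting interval, computed from the counts, which covers counting error and nothing else.

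The differences spanned -0.45, for GLRX, to 0.81, for MGST1. Their median was 0.05, beside -0.03 over all 14215 measured genes, and 22 of the 40 lay above 0 and 18 below. Over all measured genes 45.2% lay above 0 and 54.8% below, and later tallies of genes above and below 0 are to be read beside these shares. The 2 genes past 1.5-fold higher were 5% of the 40, beside a background of 3.9% of all measured genes, and none was 1.5-fold lower, beside a background of 4.97%. At a smaller rule of size, a log2 difference of 0.32 or more, 6 genes were higher (15%, background 11.8%): BACH1, TXN, TXNRD1, GPX1, MGST1 and MSRB2. At that size 3 were lower (7.5%, background 15%): PRDX2, ME1 and GLRX. These shares are near those of all measured genes, apart from the lower side of the smaller rule, where the share was smaller.

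Counting intervals were above 1 for 17 of the 40 genes (42.5%), beside 19.6% of all measured genes, and below 1 for 11 (27.5%), beside 25.4%. For 12 genes the interval held 1. Interval width follows the count, and the 40 genes had a median of 853.5 counts in AGS-GGT7 cells and 1110.5 in AGS-ctrl cells, against 284 and 381 over all measured genes. The part of this greater depth in the 2 shares was not tested. All 43 genes together took 0.530% (Wilson 95% interval 0.525% to 0.534%) of the AGS-GGT7 counts and 0.506% (0.502% to 0.510%) of the AGS-ctrl counts.

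**Figure D1:**
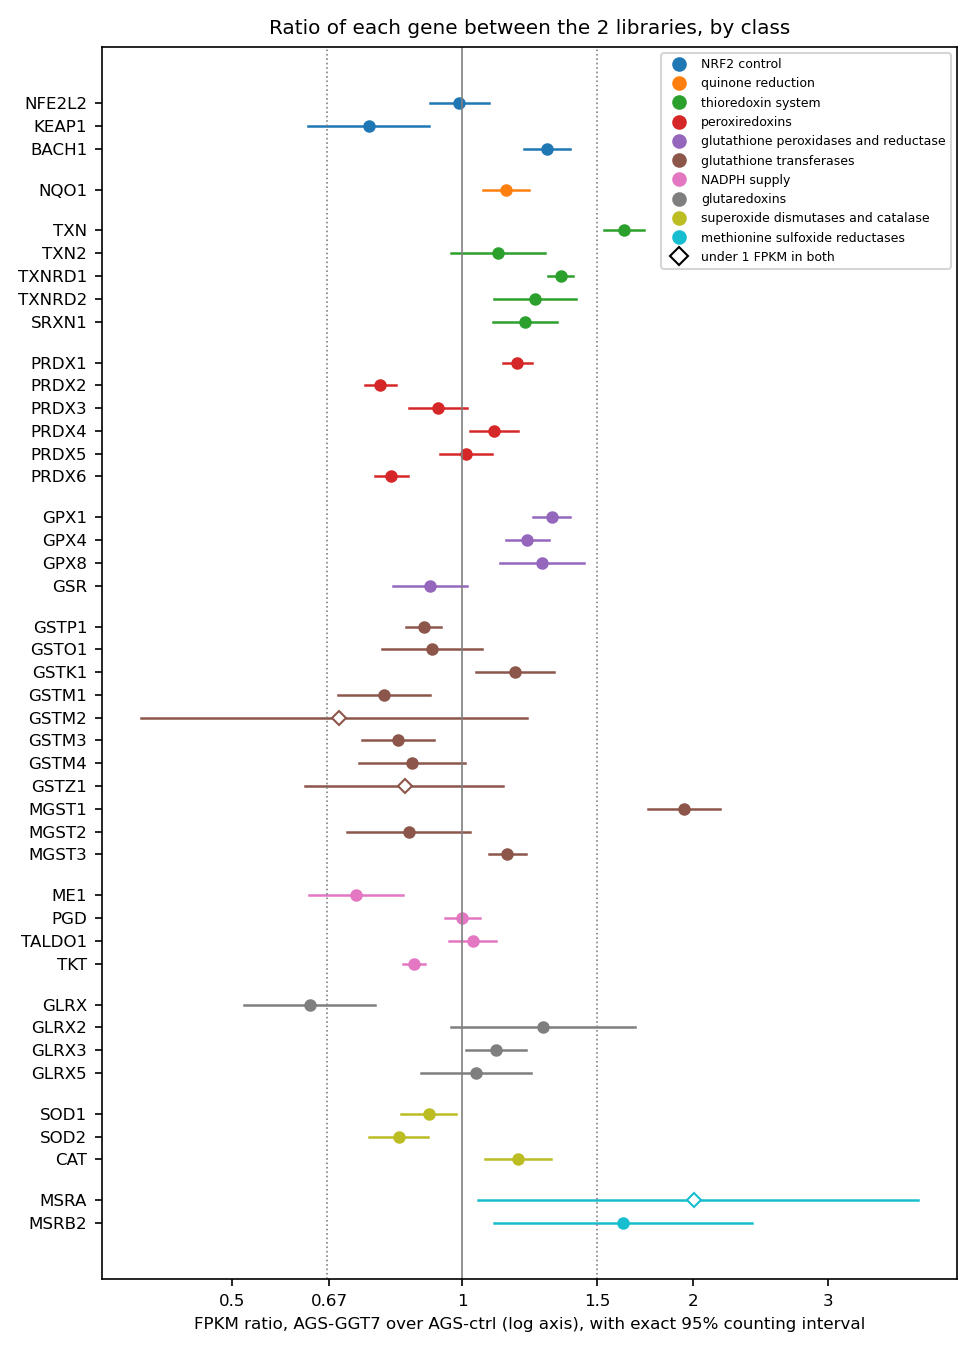
Ratio of FPKM, AGS-GGT7 over AGS-ctrl, for the 43 genes in the table, on a log axis. Points are ratios of 1 library per group, bars are exact 95% counting intervals, dotted lines mark 1.5-fold each way, and open diamonds are the genes under 1 FPKM in both libraries. Past the right line lie MSRA at 2.00, which is under 1 FPKM in both libraries, MGST1 at 1.95, TXN at 1.63 and MSRB2 at 1.62, and past the left line GLRX at 0.633.

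**Figure D2:**
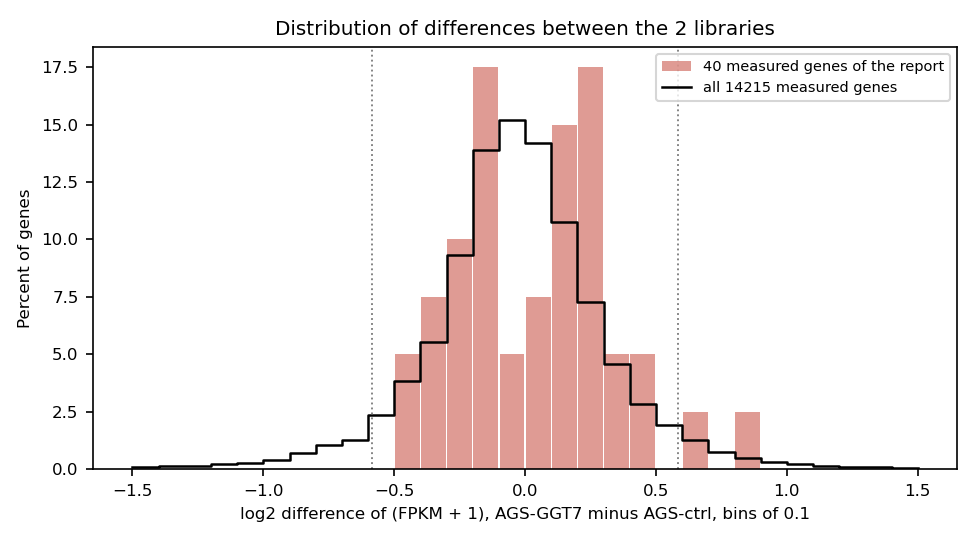
Distribution of log2 differences of (FPKM + 1), AGS-GGT7 minus AGS-ctrl, as percent of genes in bins of 0.1, for the 40 measured genes (bars) and all 14215 measured genes (line). Dotted lines mark 1.5-fold. All 40 genes lie between -0.45 and 0.81, while 86 genes of the whole table lie outside the plotted range.

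To compare levels between genes, FPKM was recomputed over the merged exons of each gene (GENCODE 29), because the deposited FPKM was found to divide by the summed length of all distinct annotated exons, which counts shared bases repeatedly. On that scale PRDX1 was the most abundant of the 43 in both libraries, at 249 FPKM in AGS-GGT7 cells and 211 in AGS-ctrl cells. TXN was the second in AGS-GGT7 cells, at 213 FPKM, while at 131 in AGS-ctrl cells it was the sixth. In AGS-ctrl cells GPX1, GSTP1, PRDX6 and TXN lay between 131 and 134 FPKM, and their order was not tested. Peroxiredoxins were the largest class by summed level, at 702 FPKM in AGS-GGT7 cells and 721 in AGS-ctrl cells. The thioredoxin system came next, at 349.9 FPKM in AGS-GGT7 cells and 238 in AGS-ctrl cells. Glutathione peroxidases with glutathione reductase summed to 284 FPKM in AGS-GGT7 cells and 227 in AGS-ctrl cells, and glutathione transferases to 222 in AGS-GGT7 cells and 236 in AGS-ctrl cells. All other FPKM values are as deposited, summed where rows shared a symbol. Apart from such sums, ratios between libraries do not depend on the length.

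**Figure D3:**
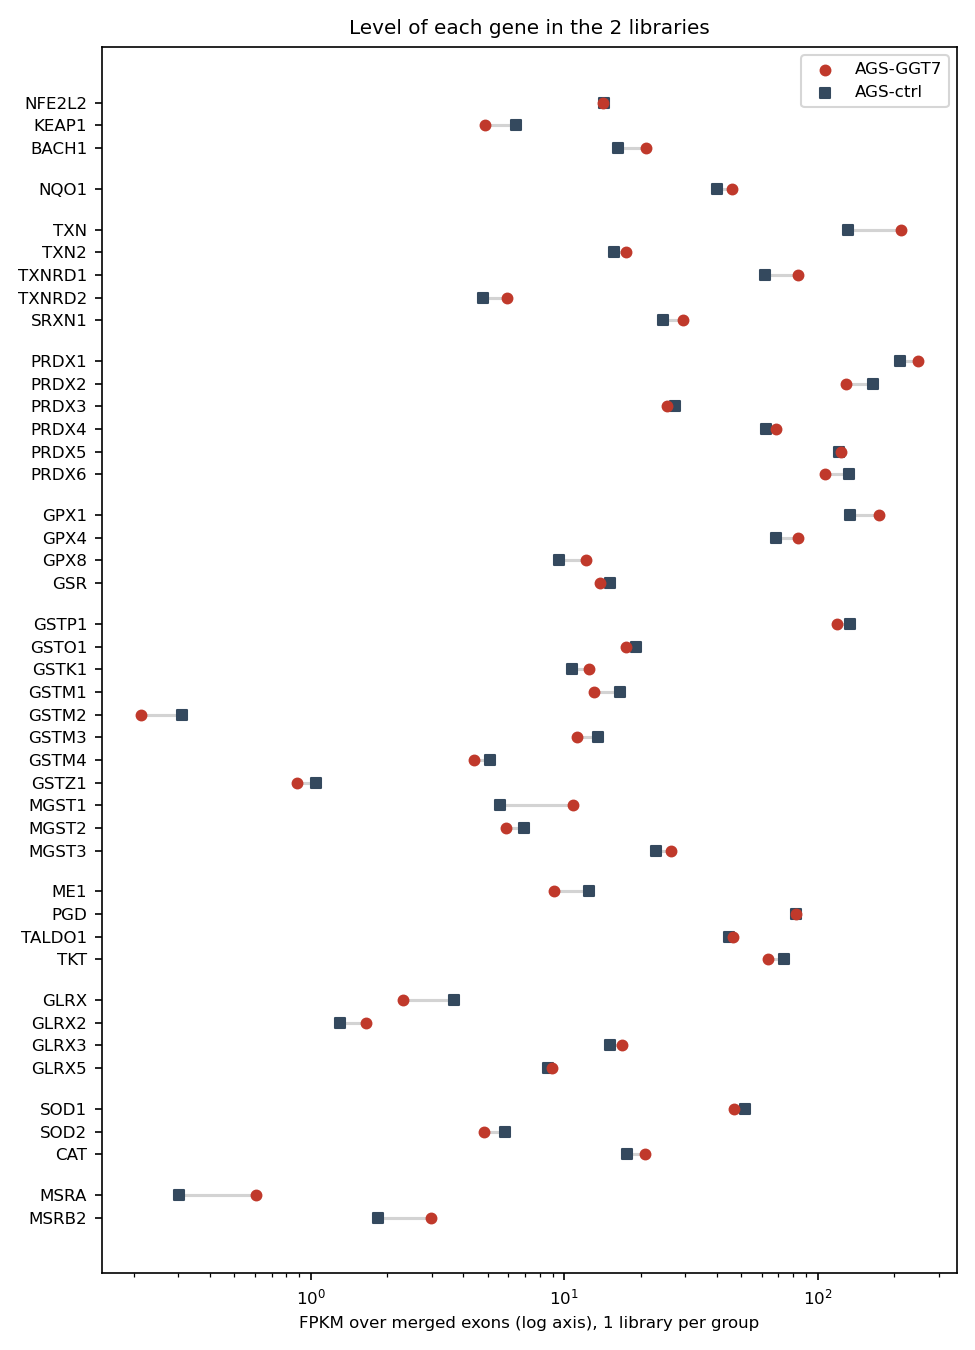
Level of each of the 43 genes as FPKM over merged exons, on a log axis, with AGS-GGT7 as circles and AGS-ctrl as squares, 1 library per group. PRDX1 and TXN have the highest AGS-GGT7 values, at 249 and 213 FPKM, and the gap between the libraries is widest, relative to level, for MGST1 and the low gene MSRA.

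**Figure D4:**
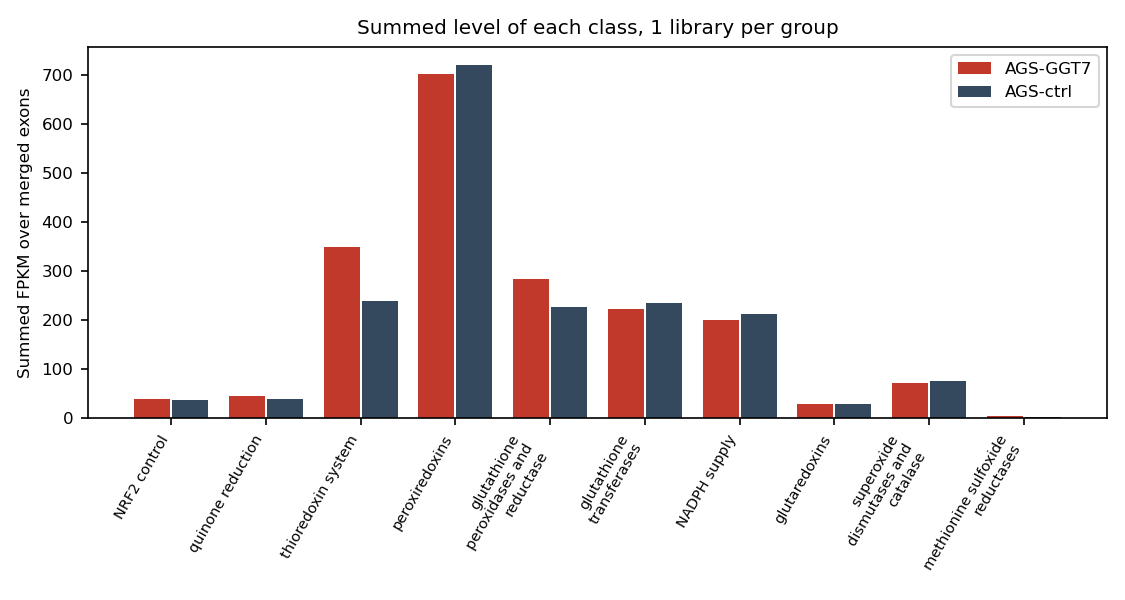
Summed FPKM over merged exons for each class, with AGS-GGT7 bars left of AGS-ctrl bars, 1 library per group and no error bars. The thioredoxin system stands at 349.9 in AGS-GGT7 cells and 238 in AGS-ctrl cells, while peroxiredoxins are close, at 702 and 721.

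Among the regulators of the pathway, the repressor BACH1 was higher, KEAP1 was lower and NFE2L2 lay level. NFE2L2 had 877 counts and 7.17 FPKM in AGS-GGT7 cells, against 1160 counts and 7.24 FPKM in AGS-ctrl cells, a ratio of 0.991 (0.906 to 1.08). This covers the mRNA only, and NRF2 is regulated largely through degradation of the protein. KEAP1, the adaptor that presents NRF2 to the CUL3 ubiquitin ligase, had 189 counts and 2.17 FPKM in AGS-GGT7 cells, against 328 counts and 2.88 FPKM in AGS-ctrl cells, a ratio of 0.755 (0.628 to 0.906). BACH1, a haem-binding repressor at antioxidant response elements, had 1666 counts and 16.5 FPKM in AGS-GGT7 cells, against 1692 counts and 12.8 FPKM in AGS-ctrl cells, a ratio of 1.29 (1.21 to 1.38). The sign for NFE2L2, though not for KEAP1 or BACH1, turns with another scaling of the libraries. NFE2L2 shares 17.6% of its exonic length with the same-strand gene AC019080.1, which had 64 counts in AGS-GGT7 cells and 30 in AGS-ctrl cells, so some reads may be split.

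NQO1, the quinone reductase often used to report NRF2 activity, was slightly higher. It had 1532 counts and 26.1 FPKM in AGS-GGT7 cells, against 1760 counts and 22.9 FPKM in AGS-ctrl cells, a ratio of 1.14 (1.06 to 1.22). Its exons overlap an antisense gene that had 0 counts in AGS-GGT7 cells and 2 in AGS-ctrl cells.

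All 5 genes of the thioredoxin system lay above the control, under each scaling of the libraries tried, with a median difference of 0.26. Thioredoxin reduces disulfides in peroxiredoxins and other proteins and is itself reduced by thioredoxin reductase with electrons from NADPH. TXN (ENSG00000136810, GRCh38 chr9:110243811-110256640, minus strand) had 2507 counts and 166 FPKM in AGS-GGT7 cells, against 2020 counts and 102 FPKM in AGS-ctrl cells. Its ratio was 1.63 (1.53 to 1.73), and its raw count was higher although the AGS-GGT7 library was the smaller. TXNRD1, the cytosolic thioredoxin reductase, had 5767 counts and 30.9 FPKM in AGS-GGT7 cells, against 5625 counts and 23.0 FPKM in AGS-ctrl cells, a ratio of 1.34 (1.29 to 1.39). No other gene was found to overlap the exons of either, or to be a near-identical copy.

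The remaining 3 genes of the system differed less. TXNRD2, the mitochondrial reductase, had 511 counts and 3.25 FPKM in AGS-GGT7 cells, against 538 counts and 2.61 FPKM in AGS-ctrl cells, a ratio of 1.24 (1.10 to 1.41). TXN2, the mitochondrial thioredoxin, had 369 counts and 8.51 FPKM in AGS-GGT7 cells, against 434 counts and 7.64 FPKM in AGS-ctrl cells, and the interval of its ratio, 1.11 (0.967 to 1.28), held 1. SRXN1, the sulfiredoxin that repairs overoxidised peroxiredoxins, had 820 counts and 29.5 FPKM in AGS-GGT7 cells, against 890 counts and 24.5 FPKM in AGS-ctrl cells, a ratio of 1.21 (1.10 to 1.33). The annotation places a same-strand gene, AL121758.1, over 84.95% of the exonic length of SRXN1, so its value is uncertain as far as reads were shared. Over merged exons, TXN made up 61.0% of the summed level of the 5 genes in AGS-GGT7 cells and 55.0% in AGS-ctrl cells.

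Peroxiredoxins, the abundant thiol peroxidases that thioredoxin keeps reduced, did not share a direction. PRDX1, a cytosolic member, had 3898 counts and 134 FPKM in AGS-GGT7 cells, against 4330 counts and 114 FPKM in AGS-ctrl cells, a ratio of 1.18 (1.13 to 1.23). PRDX2, also cytosolic, went the other way with 2784 counts and 67.8 FPKM in AGS-GGT7 cells, against 4668 counts and 86.7 FPKM in AGS-ctrl cells, a ratio of 0.782 (0.745 to 0.819). The intervals of this closely related pair do not overlap. PRDX6, the 1-cysteine peroxiredoxin that uses glutathione, was lower as well, with 2612 counts and 81.2 FPKM in AGS-GGT7 cells, against 4237 counts and 101 FPKM in AGS-ctrl cells, a ratio of 0.808 (0.769 to 0.848).

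The other three peroxiredoxins, which work mainly in organelles, lay close to the control. PRDX4 of the endoplasmic reticulum had 1341 counts and 45.6 FPKM in AGS-GGT7 cells, against 1598 counts and 41.5 FPKM in AGS-ctrl cells, a ratio of 1.10 (1.02 to 1.18). PRDX3, the mitochondrial member, had 896 counts and 20.2 FPKM in AGS-GGT7 cells, against 1263 counts and 21.7 FPKM in AGS-ctrl cells, with a ratio of 0.930 (0.852 to 1.01). PRDX5, found in mitochondria, peroxisomes and cytosol, had 1131 counts and 77.9 FPKM in AGS-GGT7 cells, against 1466 counts and 77.1 FPKM in AGS-ctrl cells, with a ratio of 1.01 (0.935 to 1.09). For PRDX3 and PRDX5 the interval held 1. Within the class, over merged exons, PRDX1 took 35.4% of the summed level in AGS-GGT7 cells and 29.3% in AGS-ctrl cells, while PRDX2 took 18.4% in AGS-GGT7 cells and 23.0% in AGS-ctrl cells. PRDX1 shares 24.9% of its exonic length with MMACHC on the opposite strand, which had 165 counts in AGS-GGT7 cells and 255 in AGS-ctrl cells, and whether reads were counted by strand is not stated.

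Of the 4 measured genes of glutathione peroxidases and reductase 3 were higher, with a median difference of 0.28 for the 4. GPX1, the main cytosolic glutathione peroxidase, had 2576 counts and 67.1 FPKM in AGS-GGT7 cells, against 2580 counts and 51.3 FPKM in AGS-ctrl cells, a ratio of 1.31 (1.24 to 1.38). GPX4, which reduces lipid hydroperoxides in membranes and thereby restrains ferroptosis, had 1733 counts and 30.5 FPKM in AGS-GGT7 cells, against 1867 counts and 25.1 FPKM in AGS-ctrl cells, a ratio of 1.22 (1.14 to 1.299). GPX8, a peroxidase of the endoplasmic reticulum membrane, had 484 counts and 6.52 FPKM in AGS-GGT7 cells, against 499 counts and 5.13 FPKM in AGS-ctrl cells, a ratio of 1.27 (1.12 to 1.44). GSR, glutathione reductase, which returns oxidised glutathione to its reduced form, lay on the other side with an interval that held 1. It had 533 counts and 12.8 FPKM in AGS-GGT7 cells, against 770 counts and 14.1 FPKM in AGS-ctrl cells, a ratio of 0.907 (0.811 to 1.01). GPX1 has a processed pseudogene, GPX1P1, at 97.2% identity, and with its 58 counts in AGS-GGT7 cells and 44 in AGS-ctrl cells added the ratio was 1.32 (1.246 to 1.39).

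GPX1, GPX4, TXNRD1 and TXNRD2 are selenoproteins, in which a TGA codon that would otherwise end translation is read as selenocysteine, the catalytic residue. The codon and its surroundings are shown because they separate these genes from the other thiol enzymes described here. Sequences are from the annotated coding sequences (GENCODE 29, GRCh38), 5′ to 3′ on the gene's strand, with the selenocysteine codon in capitals.
TXNRD1: ctccaggctggctgcTGAggttaa
TXNRD2: acggtgacaggctgcTGAgggtaa
GPX1: aatgtggcgtccctcTGAggcaccacggtc
GPX4: aacgtggcctcccagTGAggcaagaccgaa
The capitals lie at chr12:104348413-104348415 (plus strand) for TXNRD1, chr22:19877111-19877113 (minus) for TXNRD2, chr3:49358132-49358134 (minus) for GPX1 and chr19:1105403-1105405 (plus) for GPX4. In both reductases the codon is the last but 1 before the stop, codon 550 of 551 in TXNRD1 and 522 of 523 in TXNRD2. In the peroxidases it lies nearer the start of the protein-coding sequence, at codon 49 of 203 in GPX1 and 73 of 197 in GPX4.

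The ratios of these 4 genes lay between 1.22 and 1.34, each with an interval above 1, and their median difference was 0.33. Of all measured genes, 19.6% had an interval above 1 and 25.4% below. Of the 25 genes with an annotated selenocysteine codon, 21 were in the table, and 14 of those outside the list above were measured. These 14 did not share the direction, with 4 above 0 and 10 below, a median difference of -0.14 and 2 intervals above 1 and 6 below. The ratios ran from 0.447 (0.347 to 0.570) for DIO2, a deiodinase of thyroid hormone, to 1.252 (1.01 to 1.55) for TXNRD3, the third thioredoxin reductase. DIO2 had 89 counts and 0.498 FPKM in AGS-GGT7 cells, against 261 counts and 1.11 FPKM in AGS-ctrl cells. It thus passed the limit of 1 FPKM only through the library where it was higher. SELENOW and MSRB1, a methionine sulfoxide reductase, were lower at 0.697 (0.607 to 0.799) and 0.722 (0.569 to 0.911), and SELENOF of the endoplasmic reticulum was higher at 1.21 (1.10 to 1.33). The comparison of the 4 genes with the 14 was made after their values were seen, and it was not tested.

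**Figure D5:**
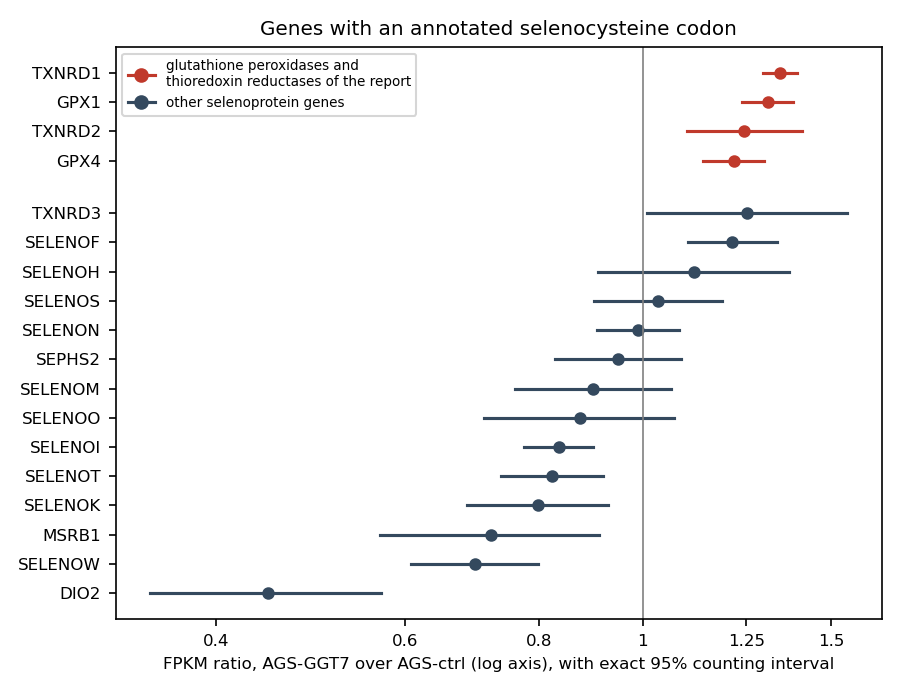
FPKM ratio, AGS-GGT7 over AGS-ctrl, on a log axis, for the measured genes with an annotated selenocysteine codon, with exact 95% counting intervals and 1 library per group. The 4 glutathione peroxidases and thioredoxin reductases described here lie between 1.22 and 1.34, and the other 14 genes between 0.447 and 1.252. The lowest, DIO2, reached 1 FPKM in AGS-ctrl cells only.

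Glutathione transferases lay below the control in 6 of 9 measured genes, with a median difference of -0.16, while the largest difference of all 40 genes, MGST1, lay above it. Of their intervals, 3 lay above 1 and 3 below, beside 19.6% and 25.4% of all measured genes, and 3 held 1. The ratio of the summed counts of all 11 transferase genes, scaled by library totals, had an interval of 0.990 to 1.05, which held 1. MGST1 (ENSG00000008394, GRCh38 chr12:16347142-16609259, plus strand), a transferase and peroxidase of the endoplasmic reticulum and outer mitochondrial membrane, had 830 counts and 7.58 FPKM in AGS-GGT7 cells, against 559 counts and 3.90 FPKM in AGS-ctrl cells. Its ratio was 1.95 (1.75 to 2.17), and no overlapping or near-identical gene was found for it. MGST3, a relative in the same membrane family, had 2282 counts and 19.4 FPKM in AGS-GGT7 cells, against 2611 counts and 16.9 FPKM in AGS-ctrl cells, a ratio of 1.15 (1.08 to 1.21). MGST2, another relative, which can also conjugate leukotrienes, lay lower with an interval that held 1. It had 193 counts and 4.36 FPKM in AGS-GGT7 cells, against 297 counts and 5.11 FPKM in AGS-ctrl cells, a ratio of 0.852 (0.707 to 1.02). MGST2 overlaps MAML3 on the opposite strand over 7.92% of its exonic length, and MAML3 had 309 counts in AGS-GGT7 cells and 318 in AGS-ctrl cells. The 3 membrane-bound transferases thus spanned 0.852 to 1.95. GSTK1, the kappa-class enzyme of mitochondria and peroxisomes, had 545 counts and 6.23 FPKM in AGS-GGT7 cells, against 610 counts and 5.32 FPKM in AGS-ctrl cells, a ratio of 1.17 (1.04 to 1.32).

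The listed soluble transferases of the pi, omega and mu classes all lay below the control among those measured. Outside the list, the omega-class gene GSTO2 lay slightly above it at 1.09 (0.883 to 1.33), an interval that held 1. GSTP1, the pi-class enzyme and the most abundant transferase of the list, had 2339 counts and 48.8 FPKM in AGS-GGT7 cells, against 3442 counts and 54.8 FPKM in AGS-ctrl cells, a ratio of 0.890 (0.845 to 0.939). It held 53.6% of the class's summed level over merged exons in AGS-GGT7 cells and 56.7% in AGS-ctrl cells. GSTO1, the omega-class enzyme with glutaredoxin-like activity, had 304 counts and 10.4 FPKM in AGS-GGT7 cells, against 436 counts and 11.4 FPKM in AGS-ctrl cells, and its interval, 0.787 to 1.06, held 1.

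The mu-class genes stand in 1 cluster on chromosome 1, between 109656081 (GSTM4) and 109741038 (GSTM3), and their 3 measured members were all lower, with a median difference of -0.25. GSTM1 had 339 counts and 7.14 FPKM in AGS-GGT7 cells, against 562 counts and 9.04 FPKM in AGS-ctrl cells, a ratio of 0.790 (0.689 to 0.906). GSTM3 had 549 counts and 7.65 FPKM in AGS-GGT7 cells, against 873 counts and 9.28 FPKM in AGS-ctrl cells, a ratio of 0.824 (0.739 to 0.918). GSTM4, with 260 counts in AGS-GGT7 cells and 396 in AGS-ctrl cells and a ratio of 0.860 (0.733 to 1.01), had an interval that held 1. GSTM2 had only 20 counts in AGS-GGT7 cells and 38 in AGS-ctrl cells, and GSTZ1, the zeta-class enzyme of tyrosine breakdown, had 77 in AGS-GGT7 cells and 120 in AGS-ctrl cells. GSTM2 shares annotated exons with GSTM1 and GSTM4, so reads could be divided among the 3. The ratio of the 4 genes' summed counts, scaled by library totals, had an interval of 0.761 to 0.881, in which possible sharing among them does not matter.

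The 4 genes listed under the supply of NADPH, the electron source of both systems, lay level or lower. Relatives outside this class went both ways. IDH2 and ME3 were higher at 1.41 (1.21 to 1.63) and 1.29 (1.14 to 1.47), and NNT was lower at 0.871 (0.833 to 0.910). ME1, cytosolic malic enzyme, had 315 counts and 9.08 FPKM in AGS-GGT7 cells, against 568 counts and 12.5 FPKM in AGS-ctrl cells, a ratio of 0.727 (0.631 to 0.835). TKT, transketolase of the pentose phosphate pathway, had 6222 counts and 32.7 FPKM in AGS-GGT7 cells, against 9433 counts and 37.9 FPKM in AGS-ctrl cells, a ratio of 0.864 (0.837 to 0.893). These 2 were the genes of the class with intervals below 1. PGD, the phosphogluconate dehydrogenase that makes NADPH, had 54.6 FPKM in each library, from 2502 counts in AGS-GGT7 cells and 3280 in AGS-ctrl cells, a ratio of 1.00 (0.949 to 1.05). TALDO1, transaldolase, had 1430 counts and 25.3 FPKM in AGS-GGT7 cells, against 1817 counts and 24.5 FPKM in AGS-ctrl cells, a ratio of 1.03 (0.962 to 1.11). The sign for PGD turns with the scaling of the libraries.

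Promoters were searched for the core of the antioxidant response element, TGACNNNGC, on either strand, in the windows from 250 bases before to 50 after each RefSeq gene start (GRCh38.p14). The core was present in 13.3% of all 35116 promoters, in 19.6% of 8527 measured genes with an entry and in 8 of 35 listed genes with one (22.9%), a share near that of the measured genes. Windows of 4 genes are shown, 5′ to 3′ on the gene's strand with the core in capitals. They are MGST1, the gene past 1.5-fold that held a match, and TXNRD1, GSTP1 and ME1, picked after their values were seen to show matching letters at genes on both sides of the control.
MGST1 (chr12:16347129-16347164, plus strand): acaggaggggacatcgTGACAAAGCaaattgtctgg
TXNRD1 (chr12:104215664-104215704, plus strand): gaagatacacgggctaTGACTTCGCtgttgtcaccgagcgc
GSTP1 (chr11:67583730-67583770, plus strand): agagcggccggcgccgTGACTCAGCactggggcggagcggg
ME1 (chr6:83431164-83431204, minus strand): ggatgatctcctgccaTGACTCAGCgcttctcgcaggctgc
Counted from the gene start, the first capital of the windows shown lies at +31 in MGST1, -99 in TXNRD1, -66 in GSTP1 and -137 in ME1. TXNRD1 and ME1 held further matches that are not shown. The GSTP1 and ME1 sites share the same 9 letters, and both genes lay below the control. The TXNRD1 site shown has the same 9 letters as the site of GSTM1, and these genes lay on opposite sides, TXNRD1 above the control and GSTM1 below it. The 8 genes with a match were GSTM1, GSTO1, GSTP1, KEAP1, ME1, MGST1, PGD and TXNRD1. Of the 8, 2 had a difference above 0 and 6 below, with a median of -0.14. Of 25 measured genes with an entry and no match in this window, TXN among them, 17 lay above 0 and 8 below, with a median of 0.18. A match is a description of letters only. GSR, MSRA, PRDX1, PRDX6, MGST2, TXN2, SOD1 and GLRX3 had no entry.

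Glutaredoxins, which reduce disulfides with glutathione, held the largest difference below the control. GLRX (ENSG00000173221, GRCh38 chr5:95751319-95823005, minus strand), the cytosolic glutaredoxin that removes glutathione from proteins, had 155 counts and 1.70 FPKM in AGS-GGT7 cells, against 321 counts and 2.68 FPKM in AGS-ctrl cells. Its ratio was 0.633 (0.519 to 0.769), beyond 1.5-fold on plain FPKM but not with 1 FPKM added. The other three lay above 0. GLRX3, which serves iron-sulfur and iron trafficking in the cytosol, had 896 counts and 14.5 FPKM in AGS-GGT7 cells, against 1061 counts and 13.1 FPKM in AGS-ctrl cells, a ratio of 1.11 (1.01 to 1.21). The mitochondrial GLRX2 and GLRX5 had ratios of 1.27 (0.966 to 1.68) and 1.04 (0.882 to 1.23), from 106 and 263 counts in AGS-GGT7 cells and 109 and 331 in AGS-ctrl cells. Both of these intervals held 1. GLRX2 shares 481 exonic bases with TROVE2 on the opposite strand, which had 1341 counts in AGS-GGT7 cells and 1430 in AGS-ctrl cells. GLRX5 shares 391 with the antisense gene SNHG10, which had 21 counts in AGS-GGT7 cells and 78 in AGS-ctrl cells, so both values are uncertain as far as such reads were counted.

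Superoxide dismutases were lower and catalase was higher. SOD1, the copper-zinc enzyme of the cytosol, had 972 counts and 37.7 FPKM in AGS-GGT7 cells, against 1410 counts and 41.8 FPKM in AGS-ctrl cells, a ratio of 0.903 (0.832 to 0.981). SOD2, the manganese enzyme of mitochondria, had 817 counts and 2.86 FPKM in AGS-GGT7 cells, against 1296 counts and 3.47 FPKM in AGS-ctrl cells, a ratio of 0.826 (0.756 to 0.902). SOD2 shares 5.12% of its exonic length with a same-strand gene annotated under the same symbol, and 1.81% with WTAP on the opposite strand. Some of its reads may therefore be split. CAT, the catalase of peroxisomes, which breaks down hydrogen peroxide without a thiol donor, had 771 counts and 15.4 FPKM in AGS-GGT7 cells, against 855 counts and 13.0 FPKM in AGS-ctrl cells, a ratio of 1.18 (1.07 to 1.304). The 3 intervals lay apart from 1.

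The 2 listed methionine sulfoxide reductases, which repair oxidised methionine, were near the limit of measurement. MSRB2 of mitochondria had 63 counts and 2.42 FPKM in AGS-GGT7 cells, against 51 counts and 1.49 FPKM in AGS-ctrl cells, a ratio of 1.62 with a wide interval (1.10 to 2.39). MSRA had 26 counts and 0.344 FPKM in AGS-GGT7 cells, against 17 counts and 0.172 FPKM in AGS-ctrl cells. Together with GSTM2, these 2 genes had the lowest counts of the 43. Relatives outside the list were lower. MSRB3 had 483 counts in AGS-GGT7 cells and 864 in AGS-ctrl cells, a ratio of 0.733 (0.654 to 0.820), and MSRB1 is given above.

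Grouped by place rather than chemistry, the 8 enzymes that work principally in mitochondria were TXN2, TXNRD2, PRDX3, GLRX2, GLRX5, SOD2, GSTK1 and MSRB2. Of these, 6 lay above 0 and 2 below, PRDX3 and SOD2, with a median difference of 0.17. Their intervals lay above 1 for 3 and below 1 for 1, beside 19.6% and 25.4% of all measured genes. The other 32 measured genes were divided 16 against 16, with a median of 0.01. The ratio of the 8 genes' summed counts, scaled by library totals, had an interval of 0.967 to 1.06, which held 1. This grouping was made after the values were seen. GSTK1, also found in peroxisomes, was placed in it, while PRDX5, found in mitochondria, peroxisomes and cytosol, was not.

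Other genes of the pathway were read from 3 lists. Of 34 NRF2 partners, degradation factors and further targets, 30 were measured, 21 above 0 and 9 below, with a median of 0.09. Of these, 4 were 1.5-fold or more higher and 1 was 1.5-fold or more lower, and 14 intervals lay above 1 and 6 below. Of all measured genes, 3.9% were that much higher, 4.97% that much lower, 19.6% had an interval above 1 and 25.4% below. SLC7A11, the cystine transporter that feeds glutathione synthesis, led the list with 4307 counts and 42.4 FPKM in AGS-GGT7 cells, against 1822 counts and 13.7 FPKM in AGS-ctrl cells, a ratio of 3.10 (2.93 to 3.27). AKR1C3, an aldo-keto reductase listed under 2 IDs that may share reads, also passed 1.5-fold. Summed over the 2 IDs it had 100.5 FPKM in AGS-GGT7 cells and 63.7 in AGS-ctrl cells, a ratio of 1.58. The interval from its summed counts, 1.39 to 1.64, held 1.5. The remaining genes past 1.5-fold, named after their values were seen, were low: ABCC2, an export pump, at 2.01 FPKM in AGS-GGT7 cells and 0.575 in AGS-ctrl cells, the aldo-keto reductase AKR1C1 at 4.90 and 2.88 FPKM in AGS-GGT7 and AGS-ctrl cells, and the carbonyl reductase CBR3, the lower gene, with 15 counts in AGS-GGT7 cells and 43 in AGS-ctrl cells. MAFK, a small MAF partner, was the lowest of the list at 5 FPKM or more, at a ratio of 0.790 (0.745 to 0.839). The small MAF genes did not share that direction. MAFG was higher at 1.31 (1.18 to 1.44), and the interval of MAFF, at 1.06 (0.931 to 1.21), held 1.

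Of 37 relatives of the listed enzymes, 29 were measured, 18 above 0 and 11 below, with a median of 0.05, 3 genes 1.5-fold or more higher, beside 3.9% of all measured genes, and none lower, beside 4.97%. TXNIP, which binds and inhibits thioredoxin, had 4345 counts and 78.9 FPKM in AGS-GGT7 cells, against 2812 counts and 39.0 FPKM in AGS-ctrl cells, a ratio of 2.02 (1.93 to 2.12). TXN and the gene of its inhibitor were thus both higher. SESN2, a stress-induced sestrin, had 623 counts and 17.5 FPKM in AGS-GGT7 cells, against 325 counts and 6.98 FPKM in AGS-ctrl cells, a ratio of 2.51 (2.19 to 2.88). The remaining higher gene, NXN or nucleoredoxin, was at 2.30 FPKM in AGS-GGT7 cells and 1.18 in AGS-ctrl cells. NADK2, mitochondrial NAD kinase, was the lowest at 5 FPKM or more, at 0.842 (0.765 to 0.926). Of 18 genes of selenoprotein synthesis and other selenoproteins, 16 were measured, 7 above 0 and 9 below, with a median of -0.01 and none past 1.5-fold. Within that list SELENOK, a selenoprotein of the endoplasmic reticulum, was the lowest at that level, at 0.798 (0.685 to 0.928).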

How the data were processed

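Illumina libraries were built from 1 ug of total RNA of each line, per the labels' protocols. GRCh38, HISAT2, edgeR and StringTie 1.3.0 are named in the submitters' processing notes, without roles. The sources used here do not give the annotation, the counting tool or its strand setting. The authors deposited an estimated count and an FPKM per gene, per the file headers. Counts were whole numbers and used unrounded. Of 23378 lines, 2 broken ones were left out, 23 date-altered symbols were restored and rows sharing a symbol (31 symbols) were summed. The deposited FPKM matched the summed distinct exons of GENCODE 29 within 1% for 86.3% of 11710 genes. Differences, exact conditional (Clopper-Pearson) intervals and the 1.5-fold rule follow the report. All listed genes are named by class. The naming rule for related lists was the largest difference each way and those past 1.5-fold, at 5 FPKM or more. Further related genes, such as IDH2, ME3, NNT, GSTO2, MSRB1, MSRB3 and those under 5 FPKM, were named outside that rule. Genes and lists were chosen with earlier results of these data known. Copies were sought with BLAST 2.17.0 (95% identity over 30% of a transcript), overlaps by 100 shared exonic bases. The interval calculation was tested on simulated data. Python 3.11.15, scipy 1.17.1, R 4.3.3, edgeR 4.0.16 and DESeq2 1.42.0 were used, the last 2 for alternative scalings only. Intervals cover counting error only, because there was 1 library per group. The reads also carry no stated molecular identifiers and need not be independent molecules, so the intervals may be too narrow.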

Additional observations from a re-analysis of the deposited data

How the results depend on the processing

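The alternatives were pseudocounts of 0.1 and 5, no filter or a limit of 5 FPKM, 4 other scalings, smaller (log2 0.32) and larger (2-fold) rules of size, the counting interval in place of the rule, and FPKM over merged exons, which was added after seeing the data. With a pseudocount of 0.1, MSRB2 joined TXN and MGST1 as higher, which made 3, and GLRX alone was lower, which made 1. With a pseudocount of 5, TXN was the 1 higher gene. At 2-fold there were 0 higher, at the smaller rule 6 higher and 3 lower, and by the counting interval 17 higher and 11 lower. The other settings left 2 higher and 0 lower, and the median difference ranged from 0.0341 with a pseudocount of 5 to 0.0918 at 5 FPKM. Scaling shifted all genes by 0.01 to 0.04 on the log2 scale and turned the sign of 2 measured genes, NFE2L2 and PGD, and of the median of the 3 NRF2 regulators, at most 0.02. The pseudocounts, scalings and merged exons gave 301 recomputed gene values. On the log2 scale, 300 moved from the main value by less than the gene's counting interval reaches to either side of its centre. MGST1 with a pseudocount of 5, at 0.50, moved further. A value that moved less can still lie outside the interval itself, as GLRX did with a pseudocount of 5, at -0.20. The filters leave a gene's own value as it is. No paired analysis was possible because there was 1 library per group. Without replicates, the spread between cultures is unknown.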
